A study of Mus musculus with 6 samples.

Results

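The membrane-spanning 4-domains subfamily A genes of macrophages (MS4A genes) were examined in mouse bone marrow-derived macrophages (BMDMs) from mice with a myeloid deletion of Drp1, which encodes the GTPase that divides mitochondria, and from their controls. The 7 genes Ms4a4a, Ms4a4b, Ms4a4c, Ms4a6b, Ms4a6c, Ms4a6d and Ms4a7 were taken as a list of names, out of 21 genes whose symbol starts with Ms4a and 36137 genes with a matched transcript. For each gene the estimated counts of all its transcripts were summed, and all 7 genes had enough counts to be tested.

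Drp1 KO BMDMs came from LysM-Cre+/- Drp1 fl/fl mice, in which Cre recombinase is driven by the lysozyme M promoter and so acts in myeloid cells in general, and WT BMDMs from LysM-Cre+/- Drp1+/+ mice, so that the controls carried Cre as well. Donor mice of both sexes were 8 to 12 weeks old, and per the methods of the study marrow from 2 mice of a genotype was pooled. Marrow cells were cultured in medium with L929 cell supernatant (10% per the labels, 20% per the methods) until day 7 and then kept for 8 hours in hypoxia and serum starvation (HSS) at 2.1% oxygen, a culture model of ischemia that all 6 libraries share. There were 3 libraries per genotype, labelled as biological replicates. Whether each came from its own pool of mice is not given in the sources used here, so p-values measure the spread between these libraries only.

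MS4A proteins cross the plasma membrane several times and sit in complexes with receptors, whose signaling and surface level they can modify. The family is best known from Ms4a1, which encodes the B cell antigen CD20, and Ms4a2, which encodes the beta chain of the high-affinity IgE receptor on mast cells. Macrophages and microglia carry another set, the Ms4a4, Ms4a6 and Ms4a7 genes, which lie side by side and arose by duplication. In humans the locus is known for its genetic association with Alzheimer's disease and with the level of soluble TREM2, a lipid-sensing receptor of microglia.

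The 6 libraries held 23389488 to 32231206 estimated counts, so that 3 counts, used as a floor, correspond to a CPM value (counts scaled to a common library size) of 0.0917 to 0.136. Dnm1l, which encodes DRP1, had a mean of 72.6 ± 2.61 CPM across WT and 61.9 ± 3.91 across Drp1 KO libraries (mean ± SD, n = 3 each). Every Drp1 KO library lay below every WT library, as in 10.3% of all genes tested. The adjusted p was 0.248 (edgeR quasi-likelihood test, Benjamini-Hochberg adjustment over 18506 genes). Counts summed over all transcripts do not isolate the deleted exons. Libraries 1 of both genotypes stood apart from libraries 2 and 3 on the second principal component, which held 29.5% of the variance, and the values of the 7 MS4A genes are therefore also given without them where a call or a sign changed. The other results below were not refitted without these libraries. Of the macrophage markers, Lyz2 averaged 9489 CPM in WT against 8883 CPM in Drp1 KO, and Adgre1, which encodes F4/80, averaged 1341 against 1386 CPM.

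After HSS, 4 of the 7 MS4A genes were higher in Drp1 KO than in WT BMDMs and none was lower. Ms4a4c rose 8.46-fold, Ms4a6b 2.82-fold, Ms4a6c 2.06-fold and Ms4a6d 1.80-fold. In comparison, 3.36% of all genes tested passed the same test, 2.29% as higher in Drp1 KO and 1.06% as lower (adjusted p under 0.05, edgeR). By the looser rule of the study, which asks for a minimum fold and takes p without adjustment, 4 of the 7 genes were likewise higher, against 7.19% of all genes tested. The rule was applied here to edgeR p-values, whereas the study used DESeq2. With DESeq2 4 of the 7 genes also passed it. For these same 4 genes every Drp1 KO library lay above every WT library, a pattern found in 11.7% of all genes tested. Ms4a4a, Ms4a4b and Ms4a7 did not pass the test. Without libraries 1 of both genotypes the log2 fold changes of the 4 genes were 3.52, 1.84, 1.31 and 0.94, and each passed the test. The median log2 fold change was 0.85 over the 7 genes and 0.0046 over all genes tested. In bulk RNA a change in the number of expressing cells and a change in RNA per cell cannot be told apart.

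**Figure D1:**
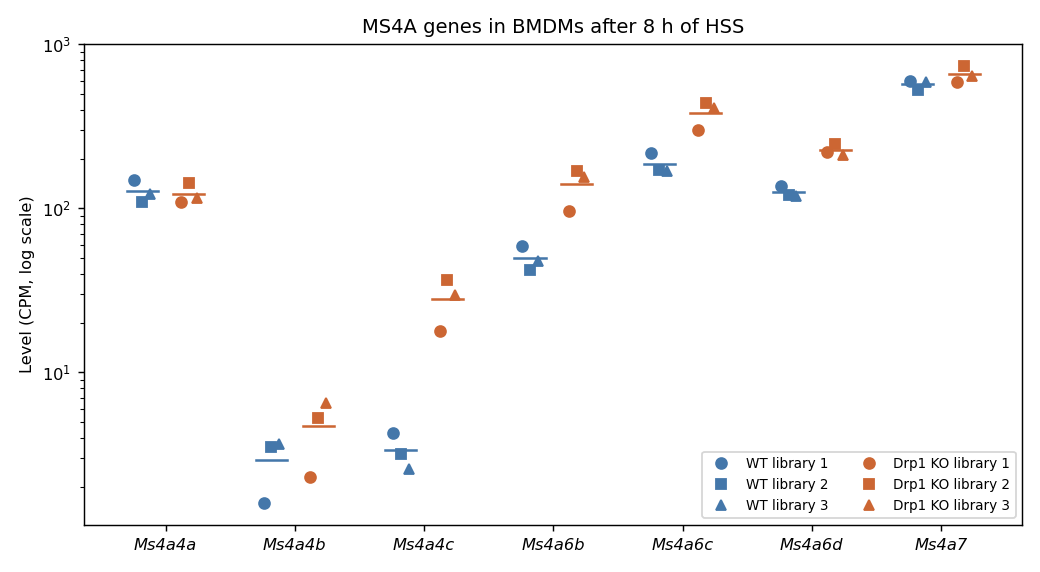
Level of the 7 MS4A genes in each library, in CPM on a log scale, for WT (blue) and Drp1 KO (orange) BMDMs after 8 h of HSS; symbols mark library numbers 1, 2 and 3, and horizontal lines the mean of 3 libraries. Ms4a4c, Ms4a6b, Ms4a6c and Ms4a6d have no Drp1 KO library within the WT range, while Ms4a4a, Ms4a4b and Ms4a7 overlap.

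The 7 genes lie within one cluster of 21 Ms4a genes on chromosome 19 (GRCm39), which spans 678.559 kb from 10939657 to 11618215. Along the cluster the order is Ms4a7 (ENSMUSG00000024672, 11298403 to 11313510, minus strand), Ms4a4a (ENSMUSG00000101389, 11352823 to 11370154, plus strand), Ms4a4c (ENSMUSG00000024675, 11382131 to 11404610, plus strand) and Ms4a4b (ENSMUSG00000056290, 11412557 to 11444419, plus strand). These are followed by Ms4a6c (ENSMUSG00000079419, 11446718 to 11462204, plus strand), Ms4a6b (ENSMUSG00000024677, 11493876 to 11508620, plus strand) and Ms4a6d (ENSMUSG00000024679, 11563968 to 11582213, minus strand). Ms4a4c and Ms4a4b are thus neighbours on one strand, as are Ms4a6c and Ms4a6b, with the protein-coding gene Gm8369 and the lncRNA gene Gm56665 between them. The lncRNA genes BE692007 and Gm19261 overlap Ms4a6c and Ms4a6b on the opposite strand and were not analysed here. Whether the counting used strand is not given in the sources used here, and without strand the reads of such a pair cannot be told apart.

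Because such copies can share reads, transcript sequences were cut into stretches of 31 bases, the word length that kallisto uses by default. The sequences came from GENCODE M39, and 22 of the 27 transcripts of the 7 genes had the same length there as in the deposited files, so the shares are approximate. Ms4a4a shared none of its stretches with another gene and Ms4a7 shared 1.09%. The share was 6.14% for Ms4a6d, 7.84% for Ms4a6b and 8.15% for Ms4a4b. Ms4a4c shared 17.0%, of which the largest part, 12.9% of its stretches, was shared with Ms4a4b. Ms4a6c shared 20.6%, with 13.8% shared with Ms4a6b. The levels of Ms4a4c beside Ms4a4b and of Ms4a6c beside Ms4a6b therefore rest partly on how kallisto divided shared reads.

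The Ms4a4 genes came first. Ms4a4a encodes a surface protein of alternatively activated macrophages that associates with the beta-glucan receptor Dectin-1. It had 3455, 2921 and 3573 counts in WT libraries 1 to 3 and 2419, 4679 and 3747 counts in Drp1 KO libraries 1 to 3. At 149, 109 and 122 CPM for WT against 110, 143 and 115 CPM for Drp1 KO, the groups overlapped. The log2 fold change was -0.05 (SE 0.138, 95% confidence interval -0.35 to 0.26, adjusted p = 0.929, edgeR), which on the linear scale is an interval of 0.782-fold to 1.20-fold. All its counts fell on a single protein-coding transcript, Ms4a4a-201. The sign of this small value turned to 0.15 (adjusted p = 0.447, edgeR) without libraries 1 of both genotypes.

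Ms4a4c and Ms4a4b carry closely similar sequence before the start sites of their most used transcripts or, for Ms4a4b, one of its 2 most used. The stretches below, read from the GRCm39 genome, are shown because Ms4a4c rose and its neighbour Ms4a4b did not pass the test. They lie at chr19:11420791-11420909 (plus strand, 131 to 13 bases before the start of Ms4a4b-204) and at chr19:11384897-11385016 (plus strand, 120 to 1 bases before the start of Ms4a4c-201). Ms4a4b-204 is annotated as retaining an intron and starts well inside the annotated span of Ms4a4b, so that its stretch lies in an intron of longer Ms4a4b transcripts, which were not quantified here. In the alignment 107 of 120 columns (89.2%) were identical, and capitals mark the bases that differ between the pair or have no partner.
Ms4a4b: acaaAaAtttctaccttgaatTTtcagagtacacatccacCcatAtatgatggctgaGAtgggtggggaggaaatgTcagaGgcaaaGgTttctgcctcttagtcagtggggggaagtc
Ms4a4c: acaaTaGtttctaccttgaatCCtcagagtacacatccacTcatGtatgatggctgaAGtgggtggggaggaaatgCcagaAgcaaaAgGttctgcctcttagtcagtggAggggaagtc

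Ms4a4c had 99, 85 and 76 counts in the WT libraries and 394, 1200 and 969 counts in the Drp1 KO libraries. This corresponds to 4.27, 3.19 and 2.59 CPM in WT against 17.9, 36.7 and 29.7 CPM in Drp1 KO. The lowest Drp1 KO library, library 1, was still far above the highest WT library, which was also library 1. The means were 3.35 ± 0.851 CPM and 28.1 ± 9.49 CPM (SD, n = 3 each), and the log2 fold change was 3.08 (SE 0.275, 95% confidence interval 2.47 to 3.69, adjusted p = 0.000389, edgeR). Between libraries of the same number the log2 difference was 2.05 for libraries 1, 3.50 for libraries 2 and 3.48 for libraries 3. An exact two-sided permutation test over the 6 libraries gave p = 0.1, the smallest value that 3 against 3 libraries allow. At least 99.4% of its counts in every library were on the protein-coding transcript Ms4a4c-201.

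Ms4a4b, known in T cells as a modulator of receptor signaling, had 37, 93 and 107 counts in WT and 51, 172 and 211 counts in Drp1 KO. Its WT libraries were at 1.60, 3.49 and 3.65 CPM and its Drp1 KO libraries at 2.32, 5.25 and 6.47 CPM. Libraries 1 were the lowest of each genotype, and Drp1 KO library 1 fell within the WT range. The log2 fold change of 0.69 (SE 0.383, 95% confidence interval -0.16 to 1.54) did not pass the test (adjusted p = 0.424, edgeR). With the library number as a block, the fit that compares libraries of the same number, it was 0.67 with an adjusted p of 0.0217, and without libraries 1 of both genotypes 0.71 with an adjusted p of 0.0399 (edgeR). With the block, 5 of the 7 genes were called higher, as were 6.73% of all genes tested, while 5.22% were called lower. Within library numbers the differences were 0.52, 0.58 and 0.82 on the log2 scale. Most of the Ms4a4b counts were on transcripts annotated as retaining an intron, 53.2% to 75.1% in WT and 64.2% to 68.2% in Drp1 KO, and the processed pseudogene Gm5511 lies within its span.

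The ratio of Ms4a4c to Ms4a4b in TPM, a scale that corrects for transcript length, was 2.81, 0.949 and 0.694 in WT and 7.12, 7.10 and 4.72 in Drp1 KO. The groups did not overlap (exact two-sided permutation p = 0.1, the smallest possible). In WT the order of the pair differed between libraries, whereas in Drp1 KO Ms4a4c was above Ms4a4b in 3 of 3 libraries.

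The Ms4a6 genes followed the same direction with smaller folds. Upstream of Ms4a6c and of an inner start site of Ms4a6b the genome also holds similar bases. They are shown because both genes rose, but the inner start belongs to Ms4a6b-206, a transcript that was not quantified here, and was chosen after the sequences had been compared. The window before Ms4a6b-205, which held most of the Ms4a6b counts, aligned with that of Ms4a6c over only 11 bases. The stretches are at chr19:11446519-11446694 (plus strand, 199 to 24 bases before the start of Ms4a6c-201) and at chr19:11495634-11495816 (plus strand, 183 to 1 bases before the start of Ms4a6b-206, at the second exon of Ms4a6b-205). They were identical in 149 of 188 alignment columns (79.3%), and capitals again mark bases that differ or have no partner.
Ms4a6c: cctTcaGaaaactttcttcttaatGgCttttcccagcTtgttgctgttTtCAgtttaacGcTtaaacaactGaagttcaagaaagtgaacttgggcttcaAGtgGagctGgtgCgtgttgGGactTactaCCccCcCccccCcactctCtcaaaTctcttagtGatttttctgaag
Ms4a6b-206: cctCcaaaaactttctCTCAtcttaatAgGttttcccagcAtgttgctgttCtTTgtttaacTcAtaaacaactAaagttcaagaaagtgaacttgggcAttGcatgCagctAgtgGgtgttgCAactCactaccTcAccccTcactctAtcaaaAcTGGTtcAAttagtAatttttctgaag

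Ms4a6b had 1362, 1127 and 1403 counts in WT and 2111, 5493 and 5068 counts in Drp1 KO. In CPM these were 58.7, 42.2 and 47.8 against 95.8, 168 and 155. Drp1 KO library 1 was the lowest of its group and lay above all WT libraries. The means were 49.6 ± 8.39 and 140 ± 38.5 CPM (SD, n = 3 each), and the log2 fold change was 1.50 (SE 0.200, 95% confidence interval 1.05 to 1.94, adjusted p = 0.00329, edgeR). Within library numbers it was 0.71, 1.99 and 1.70. With counts rescaled for transcript length the value was 1.42 and no longer passed the test (adjusted p = 0.0685, edgeR). The protein-coding transcript Ms4a6b-205 held 85.9% to 89.6% of the counts in WT and 86.7% to 90.9% in Drp1 KO, and Ms4a6b-201 had 0 counts in all 6 libraries.

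Ms4a6c was the most abundant of the Ms4a6 genes, with 5069, 4586 and 4961 counts in WT and 6646, 14407 and 13309 counts in Drp1 KO. Its WT libraries were at 219, 172 and 169 CPM and its Drp1 KO libraries at 302, 440 and 408 CPM. Again the groups did not overlap, with library 1 the highest of the WT and the lowest of the Drp1 KO libraries. The log2 fold change was 1.04 (SE 0.154, 95% confidence interval 0.70 to 1.38, adjusted p = 0.00595, edgeR), and within library numbers it was 0.46, 1.36 and 1.27. The call was lost without WT library 2 (0.97, adjusted p = 0.0579, edgeR) and with counts rescaled for transcript length (0.97, adjusted p = 0.0783, edgeR). The main transcript, Ms4a6c-201, held 94.1% to 94.8% of the counts in WT and 95.5% to 96.0% in Drp1 KO.

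Ms4a6d had 3176, 3199 and 3477 counts in WT and 4821, 8046 and 6927 counts in Drp1 KO. Its level, 137, 120 and 118 CPM in WT, was 219, 246 and 212 CPM in Drp1 KO, and the standard error of its fold change was the smallest of the 4 genes that rose. The means were 125 ± 10.3 and 226 ± 17.7 CPM (SD, n = 3 each), and the log2 fold change was 0.85 (SE 0.102, 95% confidence interval 0.62 to 1.08, adjusted p = 0.00163, edgeR). Within library numbers it was 0.68, 1.04 and 0.84. Exact two-sided permutation tests of Ms4a6b, Ms4a6c and Ms4a6d each gave the smallest possible p of 0.1.

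The copies did not move by one factor. The TPM ratio of Ms4a6b to Ms4a6c was 0.188, 0.170 and 0.181 in WT and 0.212, 0.254 and 0.263 in Drp1 KO, without overlap (exact two-sided permutation p = 0.1, the smallest possible). That of Ms4a6d to Ms4a6c was 0.756, 0.877 and 0.874 in WT and 0.924, 0.713 and 0.672 in Drp1 KO, and here the groups overlapped (exact permutation p = 0.4). Across subfamilies the ratio of Ms4a6d to Ms4a4a was 0.497, 0.600 and 0.538 in WT and 1.11, 0.956 and 1.03 in Drp1 KO (exact permutation p = 0.1).

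Ms4a7, the most abundant MS4A gene of these cells, had 13848, 13963 and 17324 counts in WT and 12884, 24168 and 20825 counts in Drp1 KO. The WT libraries were at 597, 523 and 590 CPM and those of Drp1 KO at 585, 738 and 639 CPM. Drp1 KO library 1 lay within the WT range and the other two lay above it. The log2 fold change was 0.20 (SE 0.112, 95% confidence interval -0.05 to 0.45, adjusted p = 0.439, edgeR). The interval reaches a fold change of 1.36. The value was 0.11 to 0.26 when 1 library was left out, lowest without Drp1 KO library 2, and 0.30 without libraries 1 of both genotypes (adjusted p = 0.0909, edgeR). Its counts were spread over 2 main transcripts, Ms4a7-202 with 47.4% to 60.0% in WT and 48.3% to 56.7% in Drp1 KO, and Ms4a7-203 with 33.8% to 40.6% and 37.0% to 41.6%.

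Ranked by TPM in WT BMDMs, Ms4a7 came first at 1055 ± 124 TPM (mean ± SD, n = 3), followed by Ms4a4a at 325 ± 43.0 TPM, Ms4a6c at 212 ± 25.4 TPM and Ms4a6d at 176 ± 7.04 TPM. Ms4a6b at 38.2 ± 6.36 TPM was lower, and Ms4a4c at 4.04 ± 0.755 TPM and Ms4a4b at 3.57 ± 1.64 TPM were near the bottom. In WT only Ms4a4c and Ms4a4b, neighbours in this order, overlapped in their ranges. In Drp1 KO BMDMs the order began with Ms4a7 at 1123 ± 147 TPM and Ms4a6c at 396 ± 87.6 TPM, and Ms4a4a, which in WT came directly after Ms4a7, was below Ms4a6c and Ms4a6d at 290 ± 48.1 TPM. Ms4a6d was at 297 ± 26.7 TPM, and its range overlapped those of Ms4a6c above it and Ms4a4a below it. Ms4a6b followed at 97.7 ± 30.4 TPM, Ms4a4c at 32.3 ± 11.5 TPM and Ms4a4b at 5.38 ± 2.41 TPM.

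Summed over the 7 genes, the WT libraries reached 1166, 974 and 1054 CPM and the Drp1 KO libraries 1331, 1777 and 1566 CPM, so on this scale every Drp1 KO library was above every WT library. In TPM the sums were 1939, 1595 and 1907 in WT and 1879, 2561 and 2285 in Drp1 KO, and the groups overlapped, since Drp1 KO library 1 lay within the WT range. The 7 genes held 87.8% to 90.8% of all counts on Ms4a genes. Ms4a7 accounted for 51.2%, 53.8% and 56.0% of the summed counts in WT and for 43.9%, 41.6% and 40.8% in Drp1 KO. Ms4a6c went from 18.7%, 17.7% and 16.0% to 22.7%, 24.8% and 26.1%, and Ms4a4c from 0.366%, 0.327% and 0.246% to 1.34%, 2.06% and 1.90%. Ms4a4a held 12.8%, 11.2% and 11.6% in WT and 8.25%, 8.04% and 7.34% in Drp1 KO.

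**Figure D2:**
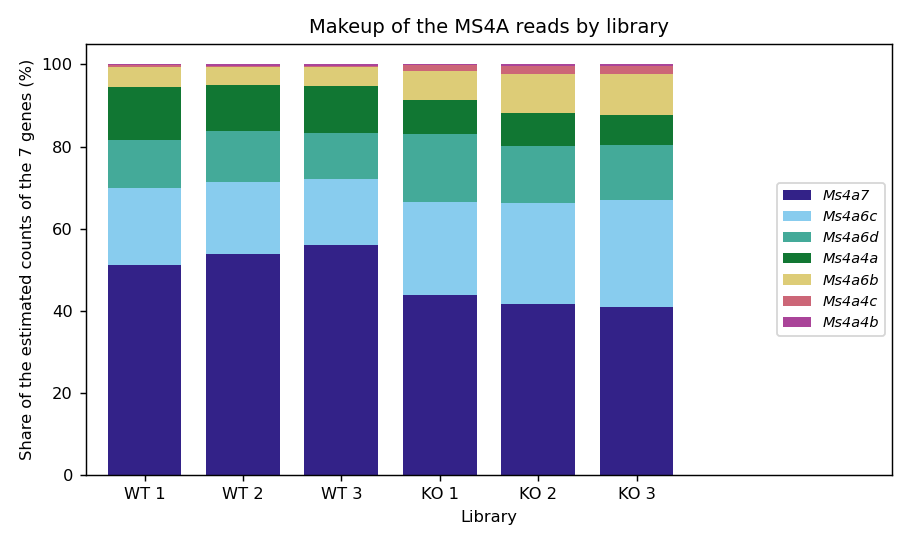
Share of each MS4A gene in the summed estimated counts of the 7 genes, in percent, for each library (WT 1 to 3, Drp1 KO 1 to 3). The Ms4a7 segment is 51.2% to 56.0% in WT and 40.8% to 43.9% in Drp1 KO, and the Ms4a6c, Ms4a6d, Ms4a6b and Ms4a4c segments are wider in Drp1 KO.

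The other 14 Ms4a genes were low or not called. Ms4a14, which lies next to Ms4a7, was the most abundant of them, with 133 ± 7.97 CPM for WT against 168 ± 15.0 CPM for Drp1 KO (SD, n = 3 each). Every Drp1 KO library was above every WT library, the log2 fold change was 0.33 (95% confidence interval 0.11 to 0.56) and the adjusted p was 0.114, or 0.0133 with the library number as a block (edgeR). Ms4a4d, the neighbour of Ms4a6b, had 0, 2 and 3 counts in WT and 5, 22 and 9 counts in Drp1 KO, with an adjusted p of 0.135 (edgeR). Ms4a12 had 29, 29 and 56 counts in WT and 26, 55 and 34 counts in Drp1 KO.

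The family genes that mark other blood lineages were close to the floor. Ms4a1 (CD20) had 4, 12 and 11 counts in WT and 4, 4 and 8 counts in Drp1 KO, Ms4a2 had 1, 4 and 0 and then 2, 1 and 0 counts, and Ms4a3, a gene of granulocyte and monocyte progenitors, had 1, 6 and 5 and then 1, 1 and 6 counts. Ms4a20 had 8, 12 and 3 counts in WT and 7, 12 and 16 counts in Drp1 KO, and Ms4a5 had 1, 1 and 0 and then 1, 5 and 2 counts. The remaining 6 genes had at most 3 counts in any library, and of the 14 genes 7 were tested and 0 were called (edgeR; 2 had an unadjusted p under 0.05, as did 16.4% of all genes tested, and DESeq2 called 0 and gave no adjusted p for Ms4a4d), while with the block 1 was called, Ms4a14.

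Genes around the cluster served as a comparison by position. Of 53 genes in the files that are not Ms4a genes and lie in the cluster or within 500 kb of it, 34 were tested. Of these 1 was higher and 1 lower, against 2.29% and 1.06% of all genes tested, with a median log2 fold change of 0.09. With the block 2 were higher and 1 lower, against 6.73% and 5.22% of all genes tested. DESeq2 called 3 of them, and 1155 genes in all. Ccdc86 was at 6.39 CPM in WT, against 9.94 CPM in Drp1 KO (log2 fold change 0.64, adjusted p = 0.0406, edgeR), and Tmem132a at 43.4 and 28.7 CPM (log2 fold change -0.60, adjusted p = 0.0329, edgeR). Gm8369, between Ms4a6c and Ms4a6b, was at 2.86 and 4.26 CPM (adjusted p = 0.517, edgeR).

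**Figure D3:**
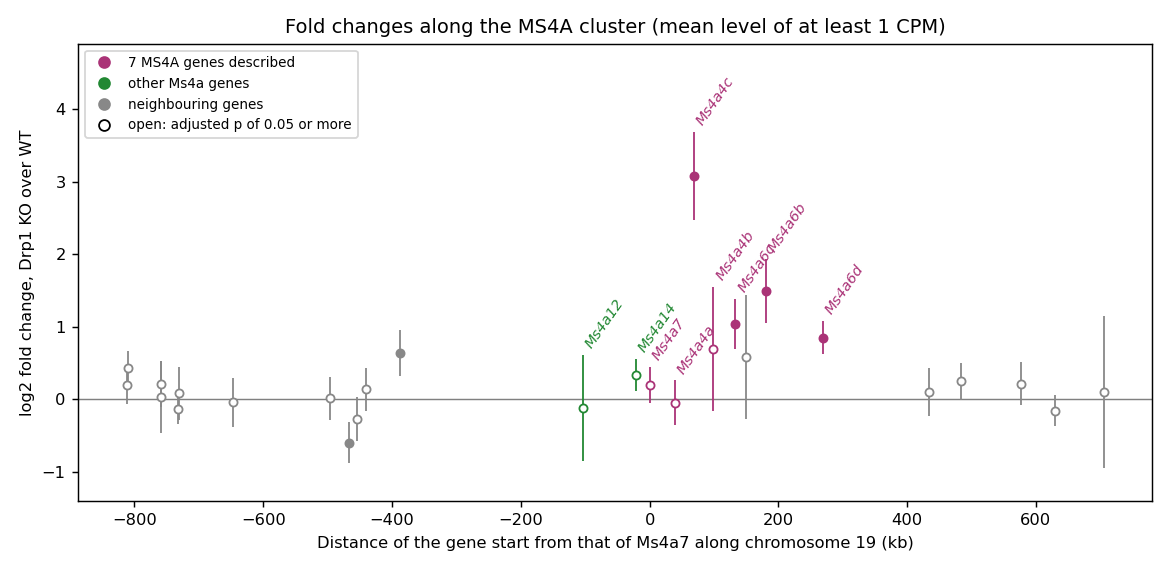
Log2 fold change of Drp1 KO over WT (vertical axis, bars give the 95% confidence interval) against the distance of each gene's start from that of Ms4a7 in kb, for genes of the MS4A cluster and its surroundings that averaged 1 CPM or more. Purple points are the 7 MS4A genes, green points other Ms4a genes and grey points neighbouring genes, and filled points have an adjusted p under 0.05; the 4 filled purple points, Ms4a4c, Ms4a6c, Ms4a6b and Ms4a6d, lie between log2 values of 0.85 and 3.08.

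Which genes had a pattern over the 6 libraries most like that of each MS4A gene was measured by the root mean square (RMS) difference of log2 CPM values, each centred on its own mean, over the 12241 genes that averaged 1 CPM or more. All genes were measured in the same 6 libraries, so closeness in this measure is a description only. Nearest to Ms4a4c were Ifi213 (RMS difference 0.126), a gene of the interferon-inducible PYHIN family, Ifi44 (0.169), an interferon-stimulated gene, and Slfn4 (0.199), a gene of the Schlafen family. Nearest to Ms4a6b were Gm49342 (0.108), Klra2 (0.128), which encodes a lectin-like receptor, and Mndal (0.144), another PYHIN gene.

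Nearest to Ms4a6c were Nt5c3 (0.0649), which encodes a pyrimidine nucleotidase, Irf9 (0.0925), the DNA-binding subunit of the factor ISGF3, and Ifih1 (0.0968), which encodes the RNA sensor MDA5. Nearest to Ms4a6d were B2m (0.0644), the light chain of MHC class I, Cd200r4 (0.0648) and Sp110 (0.0685), which encodes a nuclear body protein. The nearest gene to Ms4a4b was Gm8369 (0.0869), which lies in the same cluster. Ms4a4a was closest to Eif3e (0.0487), Erbb3 and Helq, and Ms4a7 to Polr2d (0.0315), Cebpzos and Mrpl46, genes with log2 fold changes between -0.10 and 0.26 that did not pass the test.

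**Figure D4:**
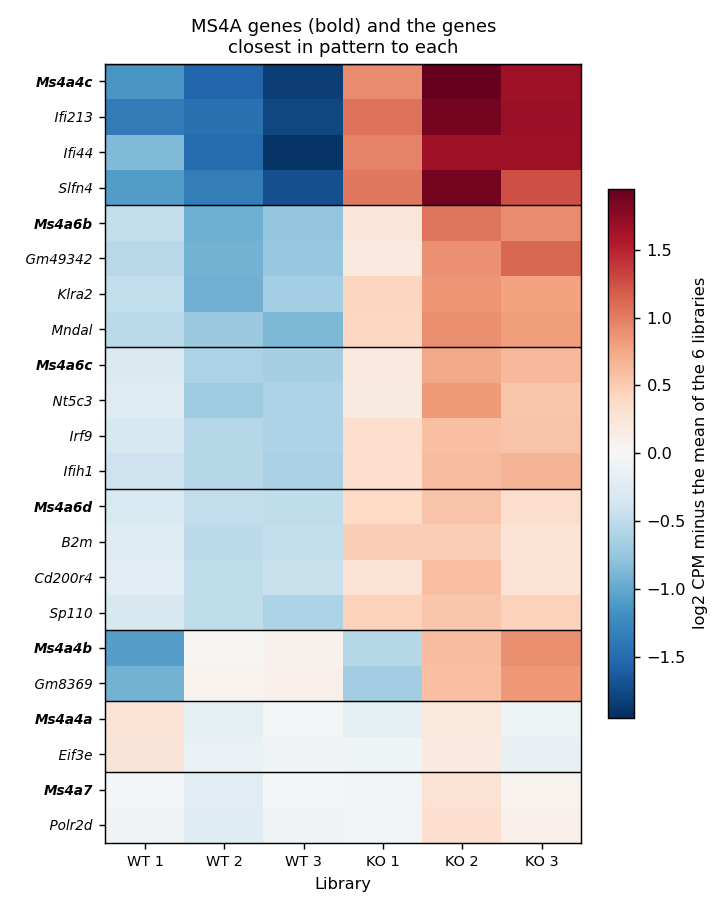
Log2 CPM minus the mean of the 6 libraries (color scale, red above and blue below the mean) for each MS4A gene in bold and the genes closest to it in pattern (3 for the genes that passed the test, 1 for the others), in WT 1 to 3 and KO (Drp1 KO) 1 to 3. In the blocks of Ms4a4c, Ms4a6b, Ms4a6c and Ms4a6d the 3 Drp1 KO libraries are red and the 3 WT libraries blue, while the Ms4a4b block is lowest in libraries 1 of both genotypes.

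Of a list of 20 interferon-stimulated genes, chosen with earlier results of these data known, 18 were higher in Drp1 KO and 0 lower. Of all genes tested 2.29% were higher and 1.06% lower. The median log2 fold change of the 20 listed genes was 2.15. The 4 with the smallest p were Usp18, Rtp4, Oasl2 and Oasl1, with log2 fold changes of 3.16, 2.39, 2.23 and 3.57 (adjusted p = 0.000197, 0.000197, 0.000322 and 0.000389, edgeR). Over the 20 genes the log2 fold change ran from 0.57 to 3.57. Bst2 (0.57, adjusted p = 0.144) and Cxcl10 (1.01, adjusted p = 0.265, edgeR) were not called, though both were with the block. Among the 18 called genes the lowest value was 1.30 (Oas1a). Ms4a4c (3.08) and Ms4a6b (1.50) lay above that value, while Ms4a6c (1.04) and Ms4a6d (0.85) lay below it.

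Motifs bound by interferon-activated factors were searched in the 250 bases before the start sites of the 7 genes and of 15921 protein-coding genes tested, on both strands. The ISRE-type motif, GAAA, any 2 bases and GAAA, was present in 3.31% of all windows and the GAS-type motif, TTC, any 3 bases and GAA, in 6.60%, and neither was in the window of any of the 7 genes. A shorter form of the first, which ends in GAA and lacks the last A, was added after the sequences had been seen; it is contained in every match of the longer form and was present in 7.40% of windows. Among the windows of the 7 genes it occurred 119 to 111 bases before Ms4a6c-201, on the plus strand within the stretch printed above, and 101 to 93 bases before Ms4a7-202 on the strand opposite to the gene. The windows of the other genes, those before Ms4a4c-201 and Ms4a6b-205 included, did not hold it. The added window before Ms4a6b-206 held it 100 to 92 bases before that start, on the plus strand within the stretch printed above.

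The receptors and enzymes linked to MS4A proteins did not move in one direction. Of 12 such genes 1 was higher and 2 were lower, with a median log2 fold change of -0.15. Clec7a, which encodes Dectin-1, rose from 614 ± 55.4 to 976 ± 51.0 CPM (log2 fold change 0.67, SE 0.103, adjusted p = 0.00706, edgeR). Fcgr2b, the inhibitory Fc gamma receptor, fell from 297 to 183 CPM (adjusted p = 0.0346, edgeR), and Adam17, a sheddase that cuts TREM2, from 296 to 215 CPM (adjusted p = 0.0432, edgeR).

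Trem2 averaged 288 ± 33.8 CPM for WT against 310 ± 22.8 CPM for Drp1 KO (adjusted p = 0.729, edgeR), and its adaptor Tyrobp averaged 213 ± 22.8 and 230 ± 22.7 CPM (adjusted p = 0.707, edgeR). Apoe, a lipid carrier bound by TREM2 and the most abundant gene of the list, averaged 5010 ± 733 CPM for WT against 3198 ± 1142 CPM for Drp1 KO, with an adjusted p of 0.187, or 0.00271 with the library number as a block (edgeR). Syk, the kinase downstream of Dectin-1 and TYROBP, was at 683 and 645 CPM. Of the related genes Tmem176a and Tmem176b, 0 of 2 were called by edgeR, with or without the block, or by DESeq2, and 0 had an unadjusted p under 0.05.

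Markers of macrophages and of other cell types were counted beside the 7 genes. Of 10 macrophage markers 1 was higher, Fcgr1 (65.8 and 167 CPM, adjusted p = 0.000322, edgeR), and 2 were lower, Csf1r (953 and 666 CPM, adjusted p = 0.0340) and Mertk (249 and 173 CPM, adjusted p = 0.0236). With the block 3 were higher, C1qa (adjusted p = 0.0258) and C1qc (adjusted p = 0.0320, edgeR) being added, and 2 lower. Of 8 monocyte markers, whose summed level was 13.5 to 16.9 TPM in WT and 20.8 to 31.5 TPM in Drp1 KO, only Spn passed the test (18.5 and 35.7 CPM, adjusted p = 0.0229, edgeR), and 3 passed with the block. Of 9 neutrophil and granulocyte markers tested 0 passed with edgeR, 4 had an unadjusted p under 0.05, DESeq2 called 2 and the block 4 as higher, at a summed level of 54.2 to 129 TPM in WT and 92.2 to 233 TPM in Drp1 KO for all 12 listed. Ly6g had 0 counts in all 6 libraries, while S100a9 had 80, 272 and 356 counts in WT and 241, 857 and 862 counts in Drp1 KO. The part of these cells in the MS4A values was not tested.

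The B lineage, mast cell and basophil, dendritic cell and fibroblast lists had 0 called genes with either edgeR fit or with DESeq2, and 1, 0, 1 and 1 genes of these lists had an unadjusted p under 0.05. The summed level of the B lineage list was 48.9 to 53.2 TPM in WT and 45.2 to 74.3 TPM in Drp1 KO, most of it Cd22 and Ighm, that of the mast cell and basophil list 0.897 to 1.83 and 1.43 to 2.50 TPM, that of the dendritic cell list 74.3 to 109 and 68.1 to 96.2 TPM, and, for the fibroblast list, 15.1 to 26.3 and 13.9 to 18.0 TPM. In the T and NK list, at 144 to 148 TPM in WT and 58.2 to 109 TPM in Drp1 KO, Cd4 held most of the level (312 and 167 CPM, adjusted p = 0.0595, edgeR), and it was called lower with the block and by DESeq2.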

How the data were processed

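RNA was sequenced from 6 BMDM libraries, 3 per genotype (poly(A) selection, paired-end reads). The deposited files hold, per transcript, the estimated counts and TPM that the authors obtained with kallisto 0.46.1 on GRCm39 transcripts. Replicates were not pooled. Here 116159 of 116873 transcripts (99.4%) were matched by identifier to GENCODE M39, and estimated counts were summed per gene and rounded; unmatched transcripts held 0.542% to 0.575% of counts. Drp1 KO and WT were compared with edgeR 4.0.16 in R 4.3.3 (quasi-likelihood test, TMM, at least 10 counts in total, no covariate), and p-values were adjusted over 18506 genes (Benjamini-Hochberg). This main fit was tested on simulated counts with known changes, the same dispersion for every gene and no difference between library numbers. The other fits were not tested in this way. CPM values use TMM library sizes. DESeq2 1.42.0 and the alternatives named below were also run. Same-numbered libraries deviated together over 12248 genes (correlations 0.510, 0.204 and 0.298), while other pairs ranged from -0.443 to 0.326. The numbers were taken as pairs in the block fit, from the data and not from the design. WT library 2 deviated more with Drp1 KO library 3 (0.326) than with Drp1 KO library 2 (0.204). The pairing of libraries 2 and 3 is therefore uncertain, and the values with the block rest on it. No libraries were copies: the smallest chi-square per degree of freedom over pairs was 10.4. Named genes were the 7 members, other Ms4a genes with over 3 counts in a library, the genes nearest in pattern to a member, and from each list at most 4 called genes by p and 2 by level. The members and lists were chosen with earlier results of these data known. Trem2, Tyrobp, Ly6g, S100a9, C1qa, C1qc, Gm56665, BE692007, Gm19261, Ighm, Cd22, Gm5511, Cd4, Bst2, Cxcl10 and Oas1a were named after their values were seen. Floors and counts cover counting error only, and reads carried no molecular identifiers.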

Additional observations from a re-analysis of the deposited data

How the results depend on the processing

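Ms4a4c and Ms4a6d kept their call in all 14 alternatives, with log2 fold changes of 2.85 to 3.52 and 0.79 to 0.94. Ms4a6b kept it in 13 and Ms4a6c in 12. With length-scaled counts 2 of the 7 genes were called, since Ms4a6b (1.42) and Ms4a6c (0.97) were lost, and 167 genes in all instead of 621. Leaving out 1 library gave 3 to 4 called members and 181 to 904 genes in all (without WT 2, 181; without WT 3, 217; without Drp1 KO 2, 268; without Drp1 KO 3, 348), and these fits had fewer libraries. Over these fits Ms4a4a ranged from -0.17 to 0.082, Ms4a4b from 0.39 to 0.99, Ms4a7 from 0.11 to 0.26 and Ms4a6c from 0.94 to 1.17, with Ms4a6c lost without WT 2. DESeq2 called 1155 genes and a filter of 1 count 1065; 4 members were called under both. The block on library numbers raised the calls to 2212 and those among the 7 genes to 5, with Ms4a4b at 0.67, and changed no other call among the 7. Without libraries 1 of both genotypes, an alternative chosen after the data were seen, 1880 genes and 5 members were called, Ms4a4b was 0.71 and Ms4a4a turned to 0.15. Apart from the smaller number of libraries, the cause of these shifts was not tested. Reads shared between copies limit Ms4a4b, Ms4a4c, Ms4a6b and Ms4a6c, and depth limits the Ms4a genes near the floor of 3 counts.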
